A study of Rattus norvegicus with 20 samples.

Results

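Transcripts of the enzymes that carry glucose to lactate were followed in rat fat under graded food restriction. The 10 genes were Hk2, Gpi, Pfkl, Aldoa, Tpi1, Pgk1, Pgam1, Eno1, Ldha and Ldhb, chosen by gene symbol from the array's annotation as the enzymes of the glycolytic steps and of lactate formation. They were 10 of the 10411 genes named on the array and had 12 of its 15866 probe sets, of which 3 belonged to Pgk1. Each gene was read from its probe set of highest mean signal, and all 10 passed the filter on low signal. The probe sets of Gapdh and Pkm also list another gene and were not named, so the chain lacks glyceraldehyde phosphate dehydrogenase and pyruvate kinase.

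Male Wistar rats, an outbred laboratory strain, entered at 6 weeks of age and ate AIN-93G, a purified diet, as powder. In the caloric restriction (CR) groups the daily food was cut by 5%, 10%, 20% or 30% for 1 month or 1 week, and controls of each duration were given their full recorded intake. All rats, controls included, were fasted for 16 h before visceral white adipose tissue was taken. RNA of 5 rats was pooled per group and the labelled RNA of each pool went onto 2 Affymetrix chips, so that 20 chips described 10 pools. The pool was the replicate, each group was 1 pool, and differences between rats entered only as averages of 5. The values were MAS5 signals, an intensity that summarises the probe pairs of a probe set, and are given as log2 signals averaged over the 2 chips of a pool. Levels of different probe sets are not comparable with each other.

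Glycolysis splits glucose into pyruvate in the cytosol and yields ATP and NADH. Lactate dehydrogenase, built from the subunits that Ldha and Ldhb encode, reduces pyruvate to lactate and regenerates NAD. In white fat, the pathway feeds pyruvate to the mitochondria for fatty acid synthesis and supplies glycerol phosphate, the backbone of triglycerides, and adipocytes release part of their glucose carbon as lactate.

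The tissue carried the defining transcripts of fat cells, and other tissues set some pools apart. Over the 10 pools the median log2 signal was 12.3 for Fabp4, 12.5 for Cfd, 11.4 for Lpl and 9.49 for Pparg, while Adipoq and Cidec were not named on the array. The mean of 6 adipocyte markers was 10.3 to 10.5 in the 1 month CR pools and 10.1 in the 1 month control, and 10.1 to 10.2 in the 1 week CR pools and 9.84 in the 1 week control. The mean of 12 lymphocyte markers was 3.95 to 7.74 in the 1 month CR pools and 7.77 in the 1 month control, and 3.84 to 6.96 in the 1 week CR pools and 7.80 in the 1 week control. For 5 macrophage markers the mean was 7.64 to 8.03 in the 1 month CR pools and 8.66 in the 1 month control, and 7.62 to 7.96 in the 1 week CR pools and 8.10 in the 1 week control. The adipocyte and macrophage means join markers that moved in opposite directions. The change in log2 signal per 10% less food was −0.21 to 0.30 for the adipocyte markers, 5 of 6 above 0. For the macrophage markers it was −0.40 to 0.16, 1 of 5 above 0. The 10 lymphocyte markers that passed the filter on low signal had −1.35 to −0.19, with 0 above 0. The mean of 10 exocrine pancreas genes was 6.89 in the 1 week 30% CR pool, 12.3 in the 1 week control and 2.67 to 3.18 in the other 8 pools. The mean of 8 skeletal muscle markers was 3.35 to 4.37, and among them Myh4 was at the floor in at least 1 pool and Acta1 had a median of 3.37, while Myh1 held 9.80 to 10.0. In pooled tissue, fewer cells of a type and less RNA per cell cannot be told apart. The correlation of a pool's 2 chips was 0.971 to 0.982 over the 9520 probe sets that passed the filter on low signal. The median spread between duplicate chips was 0.17 (SD, log2) and the median residual SD of pool means around the dose line was 0.18.

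The signal of several glycolysis transcripts rose with the depth of restriction. Triose phosphate isomerase (Tpi1), lactate dehydrogenase B (Ldhb), aldolase A (Aldoa) and glucose phosphate isomerase (Gpi) had rising dose slopes over both durations, no enzyme fell, and 9 of the 10 slopes were above 0. The slope is the change in log2 signal per 10% less food, fitted over the 10 pools with limma and adjusted over all 9520 probe sets tested. The 4 of 10 enzymes that rose stood beside 5.71% of all tested probe sets that rose, and the 0 of 10 that fell beside 3.69% that fell. Unadjusted p was under 0.05 for 7 of the 10, all with rising slopes. Counts at an unadjusted p, here and below, are given without the share of all probe sets and are descriptions only. The median slope of the 10 enzymes was 0.10, against −0.011 over all tested probe sets, of which 45.4% had a slope above 0. When each chip was centred on its own median, the median slope over all probe sets was 0.034 and the share of rising among called probe sets was 79.7%, against 60.8% with the deposited scaling.

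**Figure D1:**
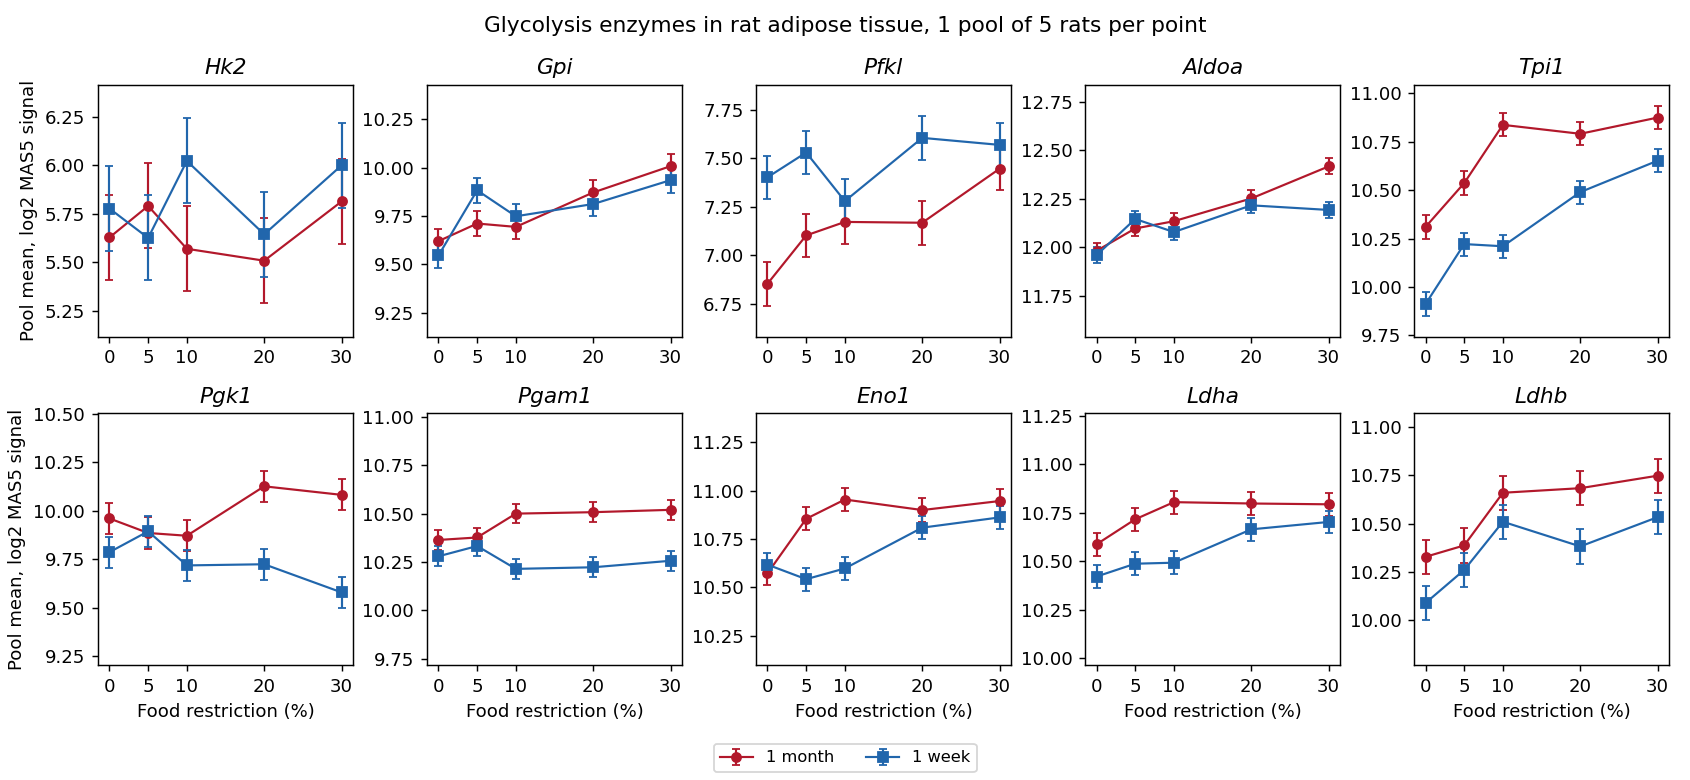
Log2 MAS5 signal of each glycolysis enzyme (y axis, 1 panel per gene, each spanning the same range) against food restriction in percent (x axis, 0 is control) at 1 month (red circles) and 1 week (blue squares). Each point is 1 pool of 5 rats and error bars are the SD of a mean of 2 chips, from the gene's duplicate chips; Tpi1 lay above the control of its duration in all 8 CR pools and Pgk1 in 3 of 8.

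Hexokinase and the isomerase open the chain. Hk2 encodes the hexokinase of insulin-sensitive tissues, which traps glucose as its phosphate. At 1 month the log2 signal of Hk2 was 5.63 in the control and 5.79, 5.57, 5.51 and 5.81 at 5%, 10%, 20% and 30% CR. At 1 week it was 5.78 in the control and 5.62, 6.02, 5.64 and 6.00 at those levels. CR pools lay on either side of the control, 4 of 8 above it, with an SD of 0.31 between duplicate chips, the widest of the 10 genes. Its slope was 0.039 ± 0.052 (SE, 95% interval −0.075 to 0.15, adjusted p = 0.655 by limma).

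Gpi encodes the isomerase that turns glucose phosphate into fructose phosphate. Its log2 signal at 1 month was 9.62 in the control and 9.71, 9.69, 9.87 and 10.01 at 5%, 10%, 20% and 30% CR. The 1 week values were 9.55 in the control and 9.88, 9.75, 9.81 and 9.94 at those levels. All 8 CR pools were above the control of their duration, and in 6 of them both chips were above the control chip of the same number. The level at 30% CR was 1.31-fold that of the control at 1 month and 1.31-fold at 1 week, and the slope was 0.11 ± 0.030 (adjusted p = 0.0468 by limma). For every enzyme, the 1 week fold compares the 30% CR pool and the control, which both carried pancreas transcripts. What part these had in the folds was not tested.

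Phosphofructokinase and aldolase follow. Pfkl encodes the liver-type subunit of phosphofructokinase, the enzyme of the committed step. The 1 month pools had log2 signals of 6.85 (control), then 7.10, 7.17, 7.17 and 7.45 at 5%, 10%, 20% and 30% CR. For 1 week they were 7.40 (control), then 7.53, 7.28, 7.61 and 7.57. Only the 1 week 10% CR pool was below its control, and the difference at 30% CR was 1.51-fold at 1 month and 1.12-fold at 1 week. The slope of 0.11 ± 0.039 did not pass the threshold (adjusted p = 0.0874 by limma).

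Aldoa encodes aldolase A, which cleaves the hexose bisphosphate into trioses. Log2 signals at 1 month were 11.98 in the control and 12.10, 12.13, 12.25 and 12.42 from 5% to 30% CR. Those at 1 week were 11.96 in the control and 12.15, 12.08, 12.22 and 12.19. The 1 month pools were ordered by dose, and in all 8 CR pools both chips lay above the control chip of the same number, as for 6.62% of all tested probe sets. The level at 30% CR was 1.35-fold that of the control at 1 month and 1.18-fold at 1 week, with a slope of 0.10 ± 0.027 (adjusted p = 0.0408 by limma).

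Tpi1 had the steepest slope of the 10. It encodes the isomerase that interconverts both triose phosphates, and so joins the pathway to glycerol phosphate formation. Its log2 signal at 1 month was 10.31 in the control and 10.54, 10.84, 10.79 and 10.87 at 5%, 10%, 20% and 30% CR. The 1 week values were 9.91 in the control and 10.22, 10.21, 10.49 and 10.65 at those levels. Both chips of all 8 CR pools lay above the control chip of the same number, as for Aldoa. Pool means were above control in all 8 for 5 of the 10 enzymes (Gpi, Aldoa, Tpi1, Ldha and Ldhb) and for 15.1% of tested probe sets. The level at 30% CR was 1.48-fold that of the control at 1 month and 1.67-fold at 1 week, there between the pools with pancreas transcripts. The slope was 0.20 ± 0.036 (95% interval 0.12 to 0.28, adjusted p = 0.0115 by limma), which is 1.51-fold over the range to 30% CR.

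The lower steps were less uniform. Pgk1 encodes phosphoglycerate kinase, the enzyme of the step that first yields ATP. The 1 month pools had log2 signals of 9.96 (control), then 9.89, 9.87, 10.13 and 10.08 at 5%, 10%, 20% and 30% CR. For 1 week they were 9.79 (control), then 9.89, 9.72, 9.72 and 9.58. At 1 month the 20% and 30% CR pools were above the control, and at 1 week the 10%, 20% and 30% CR pools were below it. The slope was −0.0045 ± 0.036 (95% interval −0.084 to 0.075, adjusted p = 0.951 by limma). Its other tested probe set had a slope of −0.028 ± 0.033 (adjusted p = 0.608), and its remaining one lay near the floor and was not tested. With the mean of all 3 probe sets the slope was −0.11, also short of the threshold (adjusted p = 0.184).

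Pgam1 encodes phosphoglycerate mutase. Log2 signals at 1 month were 10.36 in the control and 10.38, 10.50, 10.51 and 10.52 from 5% to 30% CR. Those at 1 week were 10.28 in the control and 10.33, 10.21, 10.22 and 10.26. All 4 CR pools were above the control at 1 month and 1 of 4 was at 1 week, and the slope was 0.018 ± 0.027 (95% interval −0.041 to 0.077, adjusted p = 0.689 by limma).

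Eno1 encodes enolase, which forms phosphoenolpyruvate. Its log2 signal at 1 month was 10.57 in the control and 10.85, 10.95, 10.90 and 10.95 at 5%, 10%, 20% and 30% CR. The 1 week values were 10.62 in the control and 10.54, 10.60, 10.81 and 10.86 at those levels. Every CR pool at 1 month was above its control, and at 1 week only the 20% and 30% CR pools were. The slope of 0.098 ± 0.032 missed the threshold (adjusted p = 0.0726 by limma).

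Both lactate dehydrogenase subunits were above control in all 8 CR pools. Ldha encodes the subunit that predominates in glycolytic tissue. The 1 month pools had log2 signals of 10.59 (control), then 10.72, 10.81, 10.80 and 10.79 at 5%, 10%, 20% and 30% CR. For 1 week they were 10.42 (control), then 10.49, 10.49, 10.67 and 10.70. The 1 month pools levelled off from 10% CR on, and the slope of 0.078 ± 0.026 missed the threshold (adjusted p = 0.0795 by limma).

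Ldhb encodes the subunit that predominates in heart and other oxidative tissue. Log2 signals at 1 month were 10.33 in the control and 10.39, 10.66, 10.68 and 10.75 from 5% to 30% CR. Those at 1 week were 10.09 in the control and 10.26, 10.51, 10.38 and 10.53. Both chips lay above the control chip of the same number in 7 of 8 CR pools, and the 1 month 5% CR pool was the exception. The level at 30% CR was 1.34-fold that of the control at 1 month and 1.36-fold at 1 week, and the slope was 0.13 ± 0.034 (adjusted p = 0.0357 by limma).

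These slopes rested on few pools. Tpi1 kept its call when any pool but the 1 month control (adjusted p = 0.0542 by limma without it) or the 1 week 30% CR pool (0.0712) was left out, with slopes of 0.17 to 0.23. Ldhb kept it only without the 1 month 10% CR, 1 month 30% CR or 1 week 10% CR pool, Aldoa only without the 1 month 10% CR or 1 week 5% CR pool, and Gpi only without the 1 month 10% CR or 1 week 5% CR pool. Without any other pool the adjusted p was 0.0615 to 0.125 for Ldhb, 0.0543 to 0.134 for Aldoa and 0.0625 to 0.153 for Gpi, and the slopes of the 3 stayed between 0.084 and 0.14. The count of rising enzymes was 0 without the 1 month control and 0 without the 1 week 30% CR pool. It was 1 without the 1 month 5% CR, 1 month 20% CR, 1 week control or 1 week 20% CR pool. Without the 1 week 10% CR pool it was 2, and without the 1 month 30% CR or 1 week 5% CR pool 3. Leaving out the 1 month 10% CR pool gave 6. The share of all tested probe sets called in either direction, 9.4% with all pools, moved as well. It was 1.16% without the 1 week 30% CR pool and 1.68% without the 1 month control. By contrast, it was 17.2% without the 1 month 30% CR pool and 20.2% without the 1 month 10% CR pool. Without any other pool it was 2.68% (1 week control) to 8.19% (1 week 10% CR). Leaving out both pools with pancreas transcripts, the 1 week control and the 1 week 30% CR pool, left no call, while the slopes of Tpi1, Ldhb, Aldoa and Gpi were 0.17, 0.13, 0.12 and 0.10.

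Lymphocyte markers moved against 8 of the 10 enzymes. Over the 10 pools, with each duration centred on its mean, the lymphocyte mean correlated with Tpi1 at r = −0.77, with Ldhb at −0.77, with Ldha at −0.75 and with Eno1 at −0.65, but with Gpi at −0.44, with Aldoa at −0.41, with Pgam1 at −0.39 and with Pfkl at −0.30. For Hk2 the value was 0.030 and for Pgk1 0.23. The adipocyte mean correlated with those 8 enzymes at 0.36 (Pgam1) to 0.72 (Ldhb), with Hk2 at −0.070 and with Pgk1 at −0.10. These values describe 10 pools that share doses and scaling. With the lymphocyte mean as a covariate no enzyme passed the threshold (adjusted p = 0.0793 for Tpi1 by limma), the slope of Tpi1 was 0.15 and that of Ldhb 0.092, while those of Aldoa and Gpi were 0.12 and 0.12. What part lymphocytes had in the slopes was not tested further.

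**Figure D2:**
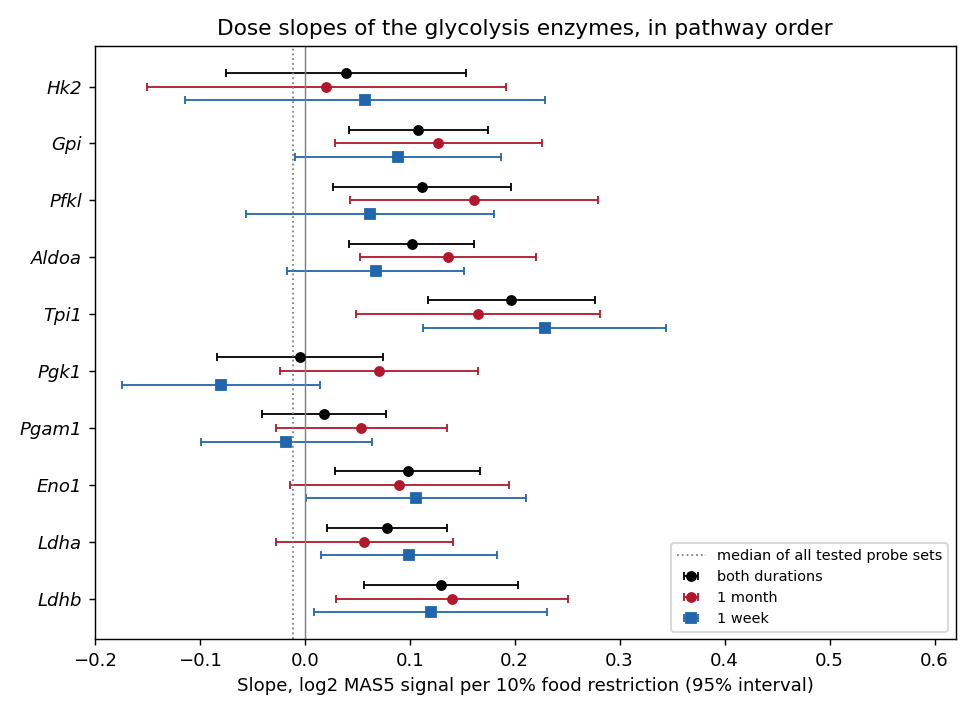
Dose slope of each enzyme, in pathway order from top to bottom, as change in log2 MAS5 signal per 10% less food (x axis), over both durations (black), at 1 month (red) and at 1 week (blue). Bars are 95% intervals of limma, and the dotted line is the median slope of all 9520 probe sets over both durations, −0.011. The intervals of Tpi1 and of Ldhb lie to the right of 0 in all 3 fits.

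The promoters of the enzymes that rose are shown because they moved together, with that of Ldha beside them for its sequence motifs. RefSeq windows of 300 bases around the annotated start (build GRCr8) matched 9 of the 10 genes, all but Pgk1. Capitals mark the hypoxia response core ACGTG and the GC box GGGCGG on either strand, and each sequence runs 5′ to 3′ on the gene's own strand.
Gpi (chr1:95993212-95993511, minus strand): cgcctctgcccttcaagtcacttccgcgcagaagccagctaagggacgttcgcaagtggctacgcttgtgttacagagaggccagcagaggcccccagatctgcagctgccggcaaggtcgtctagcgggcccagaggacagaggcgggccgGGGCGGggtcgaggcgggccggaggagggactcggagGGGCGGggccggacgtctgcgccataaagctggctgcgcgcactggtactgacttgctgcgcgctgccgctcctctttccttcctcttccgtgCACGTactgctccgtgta
Aldoa (chr1:190837972-190838271, minus strand): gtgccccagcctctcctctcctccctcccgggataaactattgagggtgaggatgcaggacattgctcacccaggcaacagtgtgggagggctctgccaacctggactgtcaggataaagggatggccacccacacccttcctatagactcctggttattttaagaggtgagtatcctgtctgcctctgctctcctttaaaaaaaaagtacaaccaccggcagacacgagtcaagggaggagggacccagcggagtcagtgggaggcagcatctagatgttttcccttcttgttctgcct
Tpi1 (chr4:159305039-159305338, minus strand): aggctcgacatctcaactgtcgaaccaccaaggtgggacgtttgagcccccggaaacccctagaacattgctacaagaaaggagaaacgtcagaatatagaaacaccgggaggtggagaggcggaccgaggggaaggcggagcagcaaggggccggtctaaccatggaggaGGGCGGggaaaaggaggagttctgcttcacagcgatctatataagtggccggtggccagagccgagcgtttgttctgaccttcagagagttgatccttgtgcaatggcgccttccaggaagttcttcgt
Ldha (chr1:106507842-106508141, plus strand): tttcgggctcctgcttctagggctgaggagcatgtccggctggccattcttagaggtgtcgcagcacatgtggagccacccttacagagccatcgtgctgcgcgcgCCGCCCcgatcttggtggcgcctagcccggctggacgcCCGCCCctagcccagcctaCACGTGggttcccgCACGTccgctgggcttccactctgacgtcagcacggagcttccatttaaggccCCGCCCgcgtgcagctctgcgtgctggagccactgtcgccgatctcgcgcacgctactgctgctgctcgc
Ldhb (chr4:177177359-177177658, minus strand): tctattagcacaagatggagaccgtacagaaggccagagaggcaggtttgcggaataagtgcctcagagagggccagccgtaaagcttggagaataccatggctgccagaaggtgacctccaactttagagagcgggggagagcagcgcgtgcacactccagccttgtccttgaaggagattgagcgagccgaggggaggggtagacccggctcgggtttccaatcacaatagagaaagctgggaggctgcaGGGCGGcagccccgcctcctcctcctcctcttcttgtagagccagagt

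GGGCGG, a motif bound by Sp factors, was found in 6 of the 9 promoters (Gpi, Pfkl, Tpi1, Pgam1, Ldha and Ldhb) and in 33.1% of 33469 rat promoter windows of the same length. ACGTG was found in 3 of 9 (Gpi, Pgam1 and Ldha) and in 19.3% of all windows. The E-box CACGTG, which contains ACGTG, was found in Ldha alone and in 6.42% of all windows, and CCAAT in Ldhb alone and in 37.5%. Among the 4 enzymes that rose, Gpi, Tpi1 and Ldhb had a GGGCGG and Aldoa had neither capitalised motif. A match is a description of the letters and does not show binding.

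At 1 month all 10 enzymes had slopes above 0, as did 45.9% of all probe sets, from 0.021 for Hk2 to 0.17 for Tpi1, with a median of 0.11. None passed the threshold (lowest adjusted p = 0.187, Aldoa, by limma), where 0.126% of all tested probe sets did, and 5 had an unadjusted p under 0.05. At 1 week 8 of 10 slopes were above 0, beside 46.5% of all, from −0.080 for Pgk1 to 0.23 for Tpi1, with a median of 0.078. None passed (lowest adjusted p = 0.0909, Tpi1, by limma), where 0.294% of all did, and 4 had an unadjusted p under 0.05. The difference between the slopes, 1 month minus 1 week, passed for 0 of the 10 and 0% of all probe sets (adjusted p = 0.999 for each enzyme by limma, and 1 enzyme, Pgk1, at an unadjusted p under 0.05). The widest difference was that of Pgk1, at 0.15 (95% interval 0.017 to 0.28), with a slope of 0.071 at 1 month and −0.080 at 1 week. For Pgam1 the slopes were 0.054 at 1 month and −0.018 at 1 week, and for Tpi1 0.17 and 0.23 in that order.

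Pool by pool, most enzymes were above the control. At 1 month 9, 8, 9 and 10 of the 10 were above the control at 5%, 10%, 20% and 30% CR, with median differences of 0.12, 0.19, 0.26 and 0.38 on the log2 scale. Of all tested probe sets 47.5%, 44.0%, 45.9% and 44.3% were above the control in those pools, with medians of −0.017, −0.063, −0.039 and −0.050. At 1 week 8, 6, 7 and 8 of the 10 were above the control, with median differences of 0.12, 0.096, 0.22 and 0.24, beside 54.1%, 54.3%, 49.1% and 48.8% of all probe sets with medians of 0.030, 0.039, −0.0090 and −0.011. Pools of 1 duration share their control, and at 1 week both the control and the 30% CR pool carried pancreas transcripts. In the 1 month 30% CR pool both chips were above their control chips for all 10 enzymes, as for 30.6% of all probe sets, and in the 1 week 30% CR pool for 7, as for 36.2%. Among the 10 enzymes, only Pfkl in the 1 month 30% CR pool and Tpi1 in the 1 week 30% CR pool reached 1.5-fold as pool means, where 5.44% and 9.38% of all probe sets did with both chips above their control chips.

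**Figure D3:**
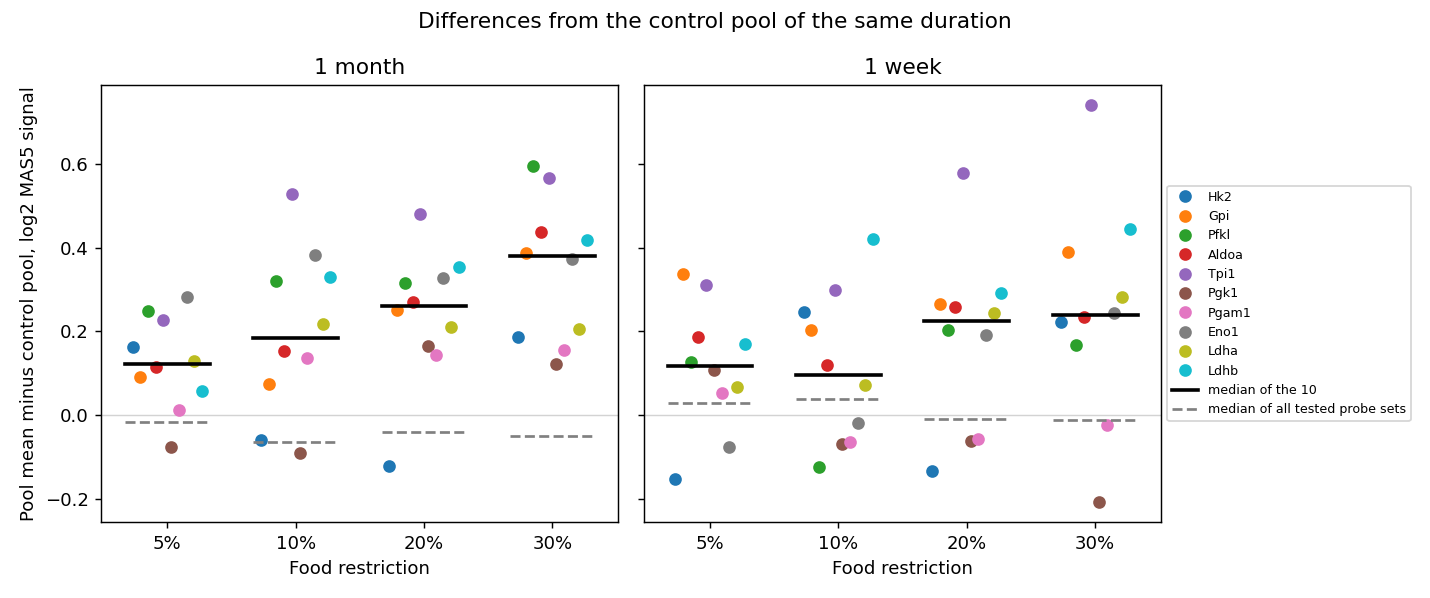
Difference between each CR pool and the control pool of its duration in log2 MAS5 signal (y axis) by food restriction (x axis), at 1 month (left) and 1 week (right). Each dot is 1 enzyme, solid bars are the median of the 10 and dashed bars that of all 9520 tested probe sets; the median of the 10 was 0.38 in the 1 month 30% CR pool and 0.24 in the 1 week 30% CR pool.

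Taking the 8 CR pools together against the 2 controls, Tpi1 alone was called, at 0.47 ± 0.12 on the log2 scale (1.38-fold, adjusted p = 0.0487 by limma). This was 1 of 10 enzymes up, beside 4.34% of all probe sets, and 0 down, beside 1.6%. The estimates of the others ran from 0.31 ± 0.10 for Ldhb, 0.25 ± 0.093 for Gpi, 0.23 ± 0.12 for Pfkl, 0.22 ± 0.088 for Aldoa, 0.21 ± 0.097 for Eno1 and 0.18 ± 0.078 for Ldha to 0.044 for Hk2, 0.044 for Pgam1 and −0.013 for Pgk1. The call of Tpi1 sat at the threshold. It held without the 1 month 5% CR pool (adjusted p = 0.0121) or the 1 week 5% CR pool (0.0337) and was lost without any other pool, with values of 0.0559 (1 week 10% CR) to 0.353 (1 week control) and estimates of 0.42 to 0.49.

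Between durations the level of 2 enzymes differed, and the chips of each number gave differences of unlike size. Tpi1 was higher at 1 month than at 1 week by 0.37 ± 0.078 (adjusted p = 0.0243 by limma), with pools of 10.31 to 10.87 at 1 month and 9.91 to 10.65 at 1 week. Pfkl was lower at 1 month by 0.33 ± 0.083 (an estimate of −0.33, adjusted p = 0.0477), with pools of 6.85 to 7.45 at 1 month and 7.28 to 7.61 at 1 week. Of all probe sets 3.31% were higher and 1.65% lower at 1 month. All rats entered at 6 weeks of age, so those of the 1 month groups were older at sampling. Age and duration cannot be told apart here. The trimmed mean signal was 98.5 on the first and 98.1 on the second chips at 1 month, and 77.7 and 111.7 on those at 1 week, so the chips of each number and duration had been scaled apart. On the first chips alone the difference was 0.64 for Tpi1 and 0.096 for Pfkl, and on the second chips alone it was 0.10 for Tpi1 and −0.75 for Pfkl. With each chip centred on its median the estimates were 0.35 for Tpi1 and −0.35 for Pfkl, and neither passed (adjusted p = 0.188 and 0.143 in that order). Under quantile normalization the estimate was 0.22 for Tpi1, which did not pass (adjusted p = 0.132), and −0.40 for Pfkl, which did (0.0389). The call of Tpi1 was also lost when any 1 of the 1 week pools or the 1 month 5% or 20% CR pool was left out (adjusted p = 0.0506 to 0.0715), and that of Pfkl when any pool but the 1 month 30% CR pool was (0.0564 to 0.118). Slopes and differences from control compare pools of 1 duration on both chips and are free of this scale.

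The enzymes varied together, apart from Hk2, Pgk1 and Pgam1. With each duration centred on its mean, Pearson's r between enzymes over the 10 pools ran from −0.47 (Hk2 and Pgk1) to 0.97 (Tpi1 and Ldha), with a median of 0.53 over the 45 pairs, 16 pairs above 0.7 and 7 below 0. The correlation with the mean of the other 9 enzymes was 0.93 for Aldoa, 0.89 for Tpi1, 0.86 for Gpi, 0.85 for Ldha, 0.82 for Ldhb, 0.81 for Pfkl and 0.78 for Eno1, but 0.49 for Pgam1, 0.060 for Hk2 and −0.063 for Pgk1. Gpi and Aldoa correlated at 0.93, Eno1 and Ldha at 0.93 and Pfkl and Aldoa at 0.89. All pairs share the pools' doses, depth of signal and scaling, and the values are descriptions. Of 7016 other genes, the pool profiles most like the mean of the 10 were those of Samm50 (r = 0.975), Mgst2 (0.974), Ppp1r1a (0.973), Slc25a10 (0.971) and Mtarc2 (0.969), over 10 pools.

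Neighbouring steps did not all follow. Over both durations 5.71% of all tested probe sets rose, 3.69% fell and 45.4% had a slope above 0. These shares stand beside the counts of each list. Of the other glycolysis isozymes, 5 of the 10 on the array passed the filter and 0 rose or fell with dose over both durations by limma, with 1 falling (Pfkp) at an unadjusted p under 0.05 and a median slope of −0.053. The slope was −0.11 ± 0.043 for Pfkp, the platelet-type phosphofructokinase, −0.088 ± 0.047 for Hk1, the widely expressed hexokinase, 0.066 ± 0.044 for Pfkm, the muscle-type phosphofructokinase, and 0.10 ± 0.090 for Eno2, the neuronal enolase. Of 5 tested glucose and lactate transporters 1 rose: Slc16a7, a monocarboxylate transporter, at 0.20 ± 0.045 (adjusted p = 0.0211 by limma). Slc2a4, the insulin-responsive glucose transporter GLUT4 of fat and muscle, had a slope of 0.043 ± 0.031 (−0.026 ± 0.036 for its other probe set), Slc2a3, another glucose transporter, 0.044 ± 0.061, Slc2a1, the basal glucose transporter, −0.16 ± 0.089, and Slc16a1, a lactate carrier, −0.065 ± 0.037.

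Controls of phosphofructokinase and gluconeogenesis gave 0 calls among 6 by limma, with 3 rising and 0 falling at an unadjusted p under 0.05. Of the 6 slopes 5 were above 0, and the lowest was −0.15. Pfkfb3, whose product makes the bisphosphate that activates phosphofructokinase, had a slope of 0.20 ± 0.060 (adjusted p = 0.0544 by limma), while its other tested probe set, of lower mean signal and not counted, passed at 0.28 ± 0.072 (adjusted p = 0.0366). Pck1, which feeds glycerol phosphate formation in fat, had a slope of 0.16 ± 0.050 (adjusted p = 0.0672). Pyruvate entry to the mitochondria held the steepest slopes of these lists, with a median of 0.16. Here 6 of 13 rose, beside 5.71% of all tested probe sets, and 0 fell, beside 3.69%. Pyruvate dehydrogenase kinases switch the dehydrogenase off. Of these, Pdk4 rose at 0.50 ± 0.069, Pdk2 at 0.43 ± 0.071 and Pdk1 at 0.26 ± 0.041 (adjusted p = 0.0041, 0.0078 and 0.0071 in that order, by limma), while Pdk3 was tested and not called. Pdk1, Pdk2 and the dehydrogenase subunit Pdha1 each had another tested probe set of lower mean signal, which was not counted. The dehydrogenase subunits Pdhx and Pdha1 rose at 0.22 ± 0.040 and 0.18 ± 0.029, and the pyruvate carrier subunit Mpc1 at 0.16 ± 0.030.

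In the pentose phosphate pathway, which shares hexose and triose phosphates with glycolysis, 2 of 6 rose, beside 5.71% of all tested probe sets. The 2 were transketolase (Tkt, 0.20 ± 0.031) and transaldolase (Taldo1, 0.19 ± 0.036), the enzymes of its non-oxidative arm that return carbon to glycolysis. The other 4 slopes were below 0, the median of the list was −0.023, and Rpia, the ribose phosphate isomerase, had −0.17 ± 0.061, falling at an unadjusted p under 0.05 but short of the threshold (adjusted p = 0.0963 by limma). Of the glycogen genes 3 of 8 rose and all 8 slopes were above 0, beside 45.4% of all tested probe sets above 0. Those that rose were Ugp2, which makes UDP-glucose, at 0.29 ± 0.048, glycogen synthase Gys1 at 0.25 ± 0.071 and liver glycogen phosphorylase Pygl at 0.18 ± 0.036. Phosphoglucomutase Pgm1 was not called at 0.10 ± 0.034 (adjusted p = 0.0722), while its other tested probe set passed at 0.14 ± 0.037 (adjusted p = 0.0405). In the shuttles that reoxidise NADH, the malate dehydrogenases Mdh2 and Mdh1 rose at 0.12 ± 0.034 and 0.11 ± 0.028, 2 of 6. Mdh1, like Tkt, had another tested probe set of lower mean signal, which was not counted. The aspartate aminotransferases Got1 and Got2 had slopes of −0.16 ± 0.065 and −0.096 ± 0.034, with unadjusted p under 0.05 for both and adjusted p = 0.13 and 0.0913, and 3 of the 6 slopes were above 0. Transcription factors known to act on glycolytic genes gave 0 of 6 by limma, with 3 rising and 1 falling at an unadjusted p under 0.05, and slopes of 0.22 ± 0.064 for Arnt, 0.13 ± 0.046 for Srebf1, 0.12 ± 0.052 for Epas1 and −0.095 ± 0.033 for Hif1a.

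**Figure D4:**
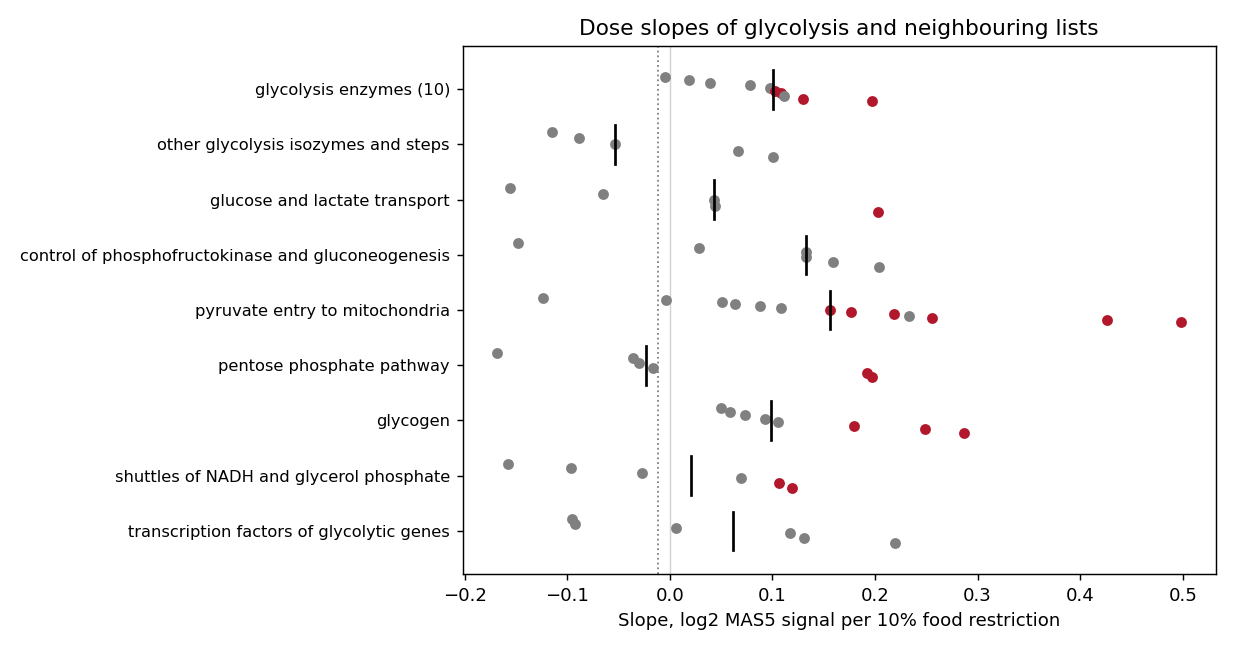
Dose slope over both durations, in log2 MAS5 signal per 10% less food (x axis), of the tested genes of each list (rows, the 10 enzymes on top). Each dot is 1 gene, spread vertically within its row for legibility, red where the adjusted p of limma was under 0.05, black bars are list medians (0.10 for the 10 enzymes, 0.16 for pyruvate entry) and the dotted line is the median of all tested probe sets.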

How the data were processed

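RNA from visceral fat of 20 chips (10 pools of 5 rats, 2 chips each) was measured on Affymetrix rat arrays. The deposited values are linear intensity values, the MAS5 signals that the authors computed and scaled with Affymetrix software. Of 15923 probe sets 57 array controls were dropped; 12783 had 1 gene symbol, 312 several and 2771 none, and no name was given to those with several. A floor of 1 was put under the signals, log2 was taken and the 2 chips of a pool were averaged. Probe sets whose mean log2 signal reached its 40th percentile (a signal of 22.8), 9520 in all, were fitted with limma 3.58.1 in R 4.3.3 (lmFit, eBayes with trend). Tests were two-sided, p-values were adjusted by Benjamini-Hochberg over all of them and called under 0.05. The steps were tested on simulated data. Fits gave the dose slope, CR against control and 1 month minus 1 week. Alternatives changed scaling, floor, filter, probe set, chips, pools, block, trend and a lymphocyte covariate. All 10 genes are named, and genes of the other lists where called or, up to 4 a list, by slopes of largest size. Genes, lists and rules were chosen with earlier results of these data known. The number of pools limits the precision, and p-values measure the spread between pools. Promoters are from RefSeq GRCr8.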

Additional observations from a re-analysis of the deposited data

How the results depend on the processing

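Over 21 alternatives the dose slopes of Gpi, Pfkl, Aldoa, Tpi1, Eno1, Ldha and Ldhb were above 0 in all, while those of Hk2 and Pgam1 were above 0 in 20 and that of Pgk1 in 7. Tpi1 was called in 17 of them (slopes 0.15 to 0.24), Ldhb in 7 (0.092 to 0.18), Aldoa in 6 (0.084 to 0.15), Gpi in 6 (0.082 to 0.15), Eno1 in 3, Ldha in 3, and Pfkl, Pgk1, Pgam1 and Hk2 in 0. The cause of the changes below was not tested.

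For the slope over both durations the main counts were 4 enzymes and 895 probe sets. Quantile normalization, no filter on low signal and eBayes without a trend each gave 1 enzyme, with the lymphocyte covariate 0 (151 probe sets) and without the 1 week control and 30% CR pools 0 (15 probe sets). Leaving out 1 pool or 1 chip number gave 0 to 6 enzymes and 110 to 1921 probe sets. At 1 month (12 probe sets, 0 enzymes) there were 4 probe sets on centred chips, 5 without a trend, 39 with the covariate and 3 without those 2 pools, and 0 to 97 with 1 pool or chip number left out. At 1 week (28 probe sets, 0 enzymes) there were 5 without a trend, 12 with the covariate and 0 without those 2 pools, and 0 to 320 with 1 pool or chip number left out, with 0 to 1 enzymes.

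For CR against control (565 probe sets, 1 enzyme) quantile normalization gave 855 probe sets and 2 enzymes, no filter 374 and 0, no trend 295 and 0, the covariate 62 and 0, the fit without those 2 pools 5 and 0, and centred chips 0 enzymes. Leaving out 1 pool or chip number gave 6 to 1980 probe sets and 0 to 2 enzymes. For 1 month minus 1 week (472 probe sets, 2 enzymes) centred chips gave 68 and 0, quantile normalization 245 and 1, no filter 303 and 1, no trend 280 and 0, the covariate 891 probe sets and the fit without those 2 pools 79 and 0. Leaving out 1 pool or chip number gave 89 to 4017 probe sets and 0 to 8 enzymes. Leaving out 1 chip number gave −0.39 and 0.38 for Gpi, −0.75 and 0.096 for Pfkl and −0.24 and 0.36 for Aldoa, a turned sign for Gpi and Pfkl without the second chips and for Aldoa without the first. The sign also turned for Pgk1 (−0.078), Pgam1 (−0.062), Eno1 (−0.11) and Ldhb (−0.075) without the first chips and for Hk2 (0.13) without the second, and kept for Tpi1 and Ldha. Under quantile normalization it turned for Aldoa (−0.075) and Eno1 (−0.0023). The count of enzyme differences of at least 1.5-fold, 2 with the deposited values, was 10 on centred chips, 1 with log2(signal + 16) and 2 to 7 with 1 chip number left out. The difference of slopes gave 0 enzymes under every alternative fitted.

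The labels do not say what chips of 1 number share. The half-difference of a pool's 2 chips, set against that of another pool over the tested probe sets, gave r = −0.087 to 0.22 at 1 month and 0.016 to 0.18 at 1 week, above 0.1 in 5 of 10 pairs of pools at each duration, and every pool's mean r with the others was above 0. Since not every pair was above 0.1, the pool means were fitted without a block. Another fit took the 20 chips, with a level for each chip number and duration and the pool as the correlation block. Its slope over both durations gave 1729 probe sets and 6 enzymes, that at 1 month 264 and 2, and that at 1 week 698 and 1. CR against control gave 1695 and 4, and 1 month minus 1 week 900 and 5. The slopes equalled those of the main fit and only the SE differed. For Tpi1 the SE was 0.031 against 0.036 in the main fit, and for Hk2 0.072 against 0.052. With 1 pool per group the spread within a group is unknown.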
